A study of Mus musculus with 2 samples.

Results

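Genes that move sodium and calcium across the plasma membrane were examined in poly(A) RNA of the adult mouse heart: Atp1b1, Atp1b2 and Atp1b3, the beta subunits of the sodium pump, Fxyd1, which encodes its regulator phospholemman, Slc8a1, the cardiac sodium-calcium exchanger, and Atp2b1, a calcium pump of the plasma membrane. They were chosen by name and by their role, though with earlier results of these data known. They are 6 of the 43346 gene identifiers in the deposited gene tables, all 6 with an entry and with counts in both libraries. The series holds 1 group of 2 libraries, labelled biological replicates 1 and 2, from heart tissue of C57BL/6J mice, an inbred strain, at 8 weeks of age. The labels give the source as male and female littermates pooled, name separate biosamples under 1 shared donor record and list the health state as unknown. No genotype, treatment or transgene is given, and nothing was compared between conditions. Each library was made from rRNA-depleted poly(A) RNA above 200 nucleotides (nt) and read as stranded pairs of 76 nt.

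The sodium pump exchanges sodium for potassium across the membrane of every heart cell, and each pump pairs a catalytic alpha subunit with a beta subunit, which carries the protein to the membrane. Phospholemman, the main FXYD protein of heart muscle, restrains the pump until kinases phosphorylate it. The sodium gradient that the pump keeps up drives the sodium-calcium exchanger, the main route by which calcium leaves the cardiac muscle cell after each beat. Plasma membrane calcium pumps carry a smaller part of that calcium and are switched on by calmodulin, which binds near their C-terminal end.

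The junction reads described further on turn on 2 coding stretches and on the first exons of 2 genes. The coding stretches, and the bases upstream of those first exons, are given here. The first is an alternative exon of Atp2b1 near the end of its coding sequence, at chr10:99019278-99019431 on the plus strand of GRCm38, 154 nt long in the GENCODE M21 transcript Atp2b1-210. Its first 87 nt, which form the exon in Atp2b1-209, are in capitals.
Atp2b1 alternative exon: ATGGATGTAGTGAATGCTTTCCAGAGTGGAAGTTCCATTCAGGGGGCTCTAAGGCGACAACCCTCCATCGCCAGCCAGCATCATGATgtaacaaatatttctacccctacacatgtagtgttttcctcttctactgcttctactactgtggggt
The second is the spliced stretch of exons 3 to 7 of Slc8a1-202, on the minus strand of chr17, which encodes part of the large loop of the exchanger inside the cell. Exon 3 (chr17:81445487-81445593) has 107 nt, exon 4 (chr17:81442203-81442223) has 21 nt, exon 5 (chr17:81441773-81441790) has 18 nt, exon 6 (chr17:81441652-81441666) has 15 nt and exon 7 (chr17:81437745-81437813) has 69 nt. Exons 4 and 6 are in capitals, so that the borders of all 5 can be seen.
Slc8a1 exons 3 to 7: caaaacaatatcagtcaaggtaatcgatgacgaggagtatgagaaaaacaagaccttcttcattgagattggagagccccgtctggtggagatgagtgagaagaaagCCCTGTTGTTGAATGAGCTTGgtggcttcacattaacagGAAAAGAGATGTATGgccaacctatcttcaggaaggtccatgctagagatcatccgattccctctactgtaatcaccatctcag
The 250 bases before the RefSeq start sites of Slc8a1 (chr17:81738388-81738637, minus strand, GRCm38.p6) and of Fxyd1 (chr7:31054854-31055103, minus strand) lie upstream of the first exons that the junction reads used most. Capitals mark the only match among the letters searched.
Slc8a1 promoter: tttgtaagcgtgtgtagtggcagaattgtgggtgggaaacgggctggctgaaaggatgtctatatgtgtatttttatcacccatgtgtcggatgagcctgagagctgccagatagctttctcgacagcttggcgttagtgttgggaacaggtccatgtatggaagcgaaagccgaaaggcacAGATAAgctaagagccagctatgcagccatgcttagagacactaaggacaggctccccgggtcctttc
Fxyd1 promoter: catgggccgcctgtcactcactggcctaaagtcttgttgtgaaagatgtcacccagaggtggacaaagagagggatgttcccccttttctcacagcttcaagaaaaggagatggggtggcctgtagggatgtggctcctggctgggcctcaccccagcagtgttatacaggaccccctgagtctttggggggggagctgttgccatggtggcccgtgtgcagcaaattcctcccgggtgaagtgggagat

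The RefSeq promoter table held 7 windows for 5 of the 6 genes, with no entry for Atp1b2. In these windows of 250 bases the ratio of observed to expected CpG was 0.53 at Slc8a1 and 0.15 at Fxyd1, while the median of all 32851 windows was 0.373, with quartiles of 0.167 and 0.723. The other genes lay higher, with 0.775 at Atp1b1, 0.714 and 0.951 at the 2 starts of Atp1b3, and 1.17 and 1.01 at those of Atp2b1. Of these windows, the upstream one of Atp2b1 shares 236 of its bases with an annotated exon of Atp2b1-207, and the upstream one of Atp1b3 shares 11 with Atp1b3-201, so they are not all sequence before transcription. The GC content followed the same division, at 50.4% for Slc8a1 and 57.2% for Fxyd1, against 70.4% for Atp1b1 and 73.6% to 80.8% in the windows of Atp1b3 and Atp2b1. Several motifs were searched on both strands: TATAAA, found in 12.4% of all windows, CCAAT in 33.8%, GGGCGG in 32.7% and AGATAA in 9.99%. Slc8a1 held AGATAA, letters that GATA factors bind, at 68 bases before the start, and none of the other motifs. Fxyd1 held none of the 4 motifs, Atp1b1 held CCAAT and 2 copies of GGGCGG, and both starts of Atp2b1 and the upstream start of Atp1b3 held GGGCGG. A match or its absence describes the letters of the window only.

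Fxyd1 stood highest of the 6 genes and Atp2b1 lowest, and the order Fxyd1, Atp1b1, Slc8a1, Atp1b3, Atp1b2, Atp2b1 was the same in both libraries. Levels are the deposited TPM, an abundance per transcript length scaled to a fixed total in each library, which may be set between genes. They are given as each library's value and as mean ± SD (n = 2). An exact two-sided sign test on 2 libraries cannot go below 0.5, so no order was tested. Neighbours in the order were taken as apart where both libraries agreed in direction and the mean log2 ratio exceeded its SD, which held for the pairs described below.

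**Figure D1:**
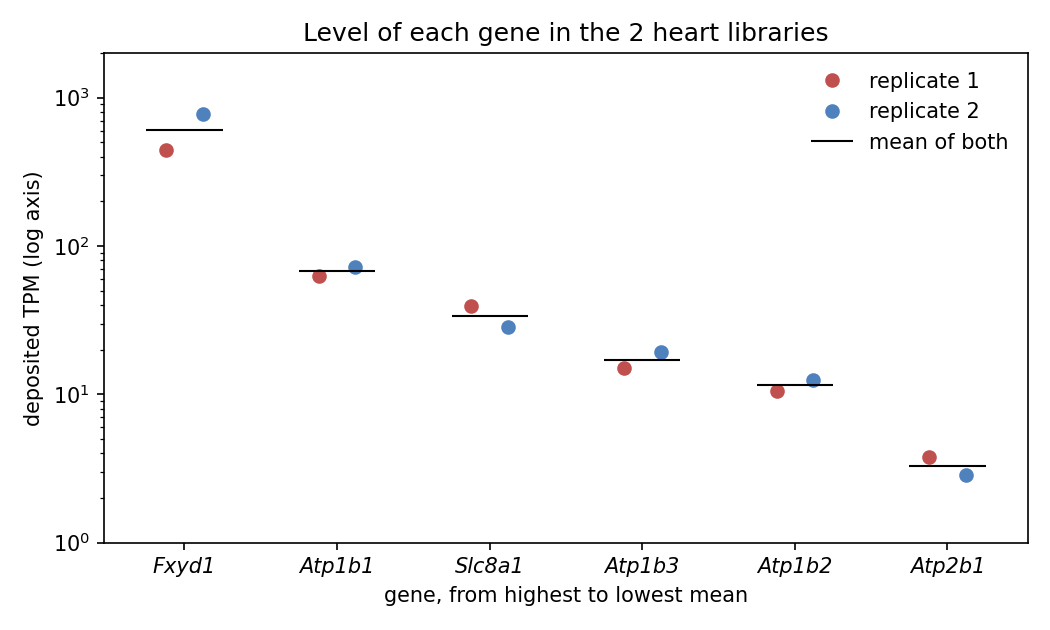
Deposited TPM of each gene (log axis) in replicate 1 (red, left point) and replicate 2 (blue, right point), with a line at the mean. Fxyd1 stands at 446 and 770 TPM, and Atp2b1 at 3.75 and 2.85 TPM.

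Atp1b1, the beta subunit found in most tissues, had 62.4 TPM in replicate 1 and 72.3 TPM in replicate 2 (67.3 ± 7.0). Atp1b3, another widely expressed beta subunit, had 14.9 and 19.4 TPM (17.1 ± 3.12). Atp1b2, first known as an adhesion molecule of glia, had 10.5 and 12.6 TPM (11.5 ± 1.46). Replicate 2 was higher for all 3 beta subunits in deposited TPM, and the levels of no pair of them overlapped. That direction between the libraries turns round when TPM is rescaled to genes outside the mitochondrial genome, whose share differed (46.5% and 30.6% of TPM): Atp1b1 then had 120 and 107, Atp1b2 20.3 and 18.6, and Atp1b3 28.9 and 28.6. Of the summed TPM of the 3 beta subunits, Atp1b1 held 71.0% in replicate 1 and 69.4% in replicate 2, Atp1b3 held 17.02% and 18.6%, and Atp1b2 held 11.96% and 12.06%. The log2 ratio of TPM within a library was 1.98 ± 0.11 for Atp1b1 over Atp1b3, 2.55 ± 0.03 for Atp1b1 over Atp1b2 and 0.57 ± 0.08 for Atp1b3 over Atp1b2. The closest pair, Atp1b3 over Atp1b2, was 1.42 in replicate 1 and 1.54 in replicate 2 as a fold of TPM. That small distance rests on the correction for length, since without it the 2 genes had nearly equal counts: Atp1b3 had 1648 and 2285, Atp1b2 had 1641 and 2175.

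Fxyd1 had 446 TPM in replicate 1 and 770 TPM in replicate 2 (608 ± 229), at percentile 99.1 of the 11161 protein-coding genes with a mean of at least 1 TPM. It was the only member in the top 5% of these genes: Atp1b1 lay at percentile 92.9, Slc8a1 at 85.9, Atp1b3 at 73.5, Atp1b2 at 63.5 and Atp2b1 at 26.8. Fxyd1 held 92.7% and 93.1% of the TPM of the 7 FXYD genes. It exceeded Atp1b1 by 7.15-fold in replicate 1 and 10.7-fold in replicate 2 in TPM, and Slc8a1 by 11.3-fold and 27.3-fold. The ratio over Slc8a1 thus more than doubled between the libraries, with Fxyd1 higher in replicate 2 and Slc8a1 higher in replicate 1.

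Slc8a1 had 39.3 TPM in replicate 1 and 28.2 TPM in replicate 2 (33.8 ± 7.84), and Atp2b1 had 3.75 and 2.85 TPM (3.30 ± 0.636). Both were lower in replicate 2, and their levels did not overlap. The exchanger exceeded the pump 10.5-fold in replicate 1 and 9.90-fold in replicate 2, a log2 ratio of 3.35 ± 0.06. This was among the steadiest pairs between the libraries, unlike Atp1b2 over Atp2b1, which was 2.80 in replicate 1 and 4.41 in replicate 2 as a fold of TPM. The size of the ratio of Slc8a1 over Atp2b1 depends on the lengths of the transcript models. Without the correction for length its log2 was 1.99. Slc8a1 held 99.3% and 97.8% of the TPM of the 3 Slc8a genes of the plasma membrane. Atp2b1 held 49.7% and 41.9% of the TPM of the 4 plasma membrane calcium pump genes. It was thus under 50% of its family in both libraries, though its mean share of 45.8 ± 5.53% was not set apart from 50%. Atp2b1 was the highest of its family in replicate 1 but not in replicate 2. Slc8a1, Fxyd1 and Atp1b1 each held over 50% of their families in both libraries.

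With 1 library on each side, the difference between the libraries has no replicate check and no p-value. It was measured as the log2 ratio of replicate 1 over replicate 2 in CPM, counts relative to the library total, scaled by TMM (a trimmed mean over genes), with 0.5 CPM added. A gene with at least 20 counts over both libraries was counted as apart at 2-fold or more. By that measure 0 of the 6 members were apart, where 812 of 16140 genes tested, or 5.03%, were: 191 (1.18%) were higher in replicate 1 and 621 (3.85%) in replicate 2. All 6 members passed the minimum of counts, with between 1299 and 18843 in a library. Intervals of the fold are exact binomial (Clopper-Pearson) at 95% and cover counting error only.

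Slc8a1 was counted 6635 times in replicate 1 and 5033 times in replicate 2, a log2 ratio of 0.65, or 1.57-fold higher in replicate 1 (1.52 to 1.63). Atp2b1 had 1619 and 1299 counts, a log2 ratio of 0.56, or 1.48-fold higher in replicate 1 (1.38 to 1.60). Fxyd1 had 10328 and 18843 counts, a log2 ratio of -0.61, or 1.53-fold higher in replicate 2 (1.49 to 1.57). These 3 genes differed by more than the counting error. Of the genes tested, 83.3% differed less than Slc8a1, 80.4% less than Fxyd1 and 76.6% less than Atp2b1. The beta subunits moved less, though Atp1b3 and Atp1b2 also differed by more than the counting error. Atp1b3 had a log2 ratio of -0.21, 1.16-fold higher in replicate 2 (1.09 to 1.24), and Atp1b2 one of -0.15, 1.11-fold higher in replicate 2 (1.04 to 1.18). Atp1b1, with 9187 and 11219 counts, had a log2 ratio of -0.03, 1.02-fold (0.995 to 1.05), which was within counting error under this scaling. With total counts as library sizes its log2 ratio was -0.16, and with deposited TPM -0.21.

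Except for Atp1b3, the direction of the members ran with the GC content of their annotated transcripts. That content was pooled over all GENCODE M21 transcripts of a gene, with a shared exon counted once per transcript. It thus includes transcripts that were not quantified, such as Slc8a1-204 of 18464 nt. How far it matches the GC content of the sequence that was counted was not tested. Across the genes tested, the median log2 ratio fell along 20 bins of GC content to -0.50 in the highest, at 60.8% GC, against 0.50 in the lowest, at 39.3% GC. Slc8a1 and Atp2b1, the members higher in replicate 1, had 43.7% and 43.6% GC. Fxyd1, the member farthest toward replicate 2, had 57.1%, and Atp1b1 and Atp1b2, nearest to 0, had 51.6% and 51.7%. After subtraction of the running median, the log2 ratio was 0.28 for Slc8a1, 0.18 for Atp2b1, -0.28 for Fxyd1, -0.11 for Atp1b2 and 0.00 for Atp1b1. Atp1b3, at 46.4% GC, moved the other way, with a log2 ratio of -0.44 after the correction, so that it then stood farthest from 0 of the 6. After the correction 625 of 16043 genes (3.9%) were 2-fold or more apart, 0.673% higher in replicate 1 and 3.22% in replicate 2, again with 0 of the members.

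**Figure D2:**
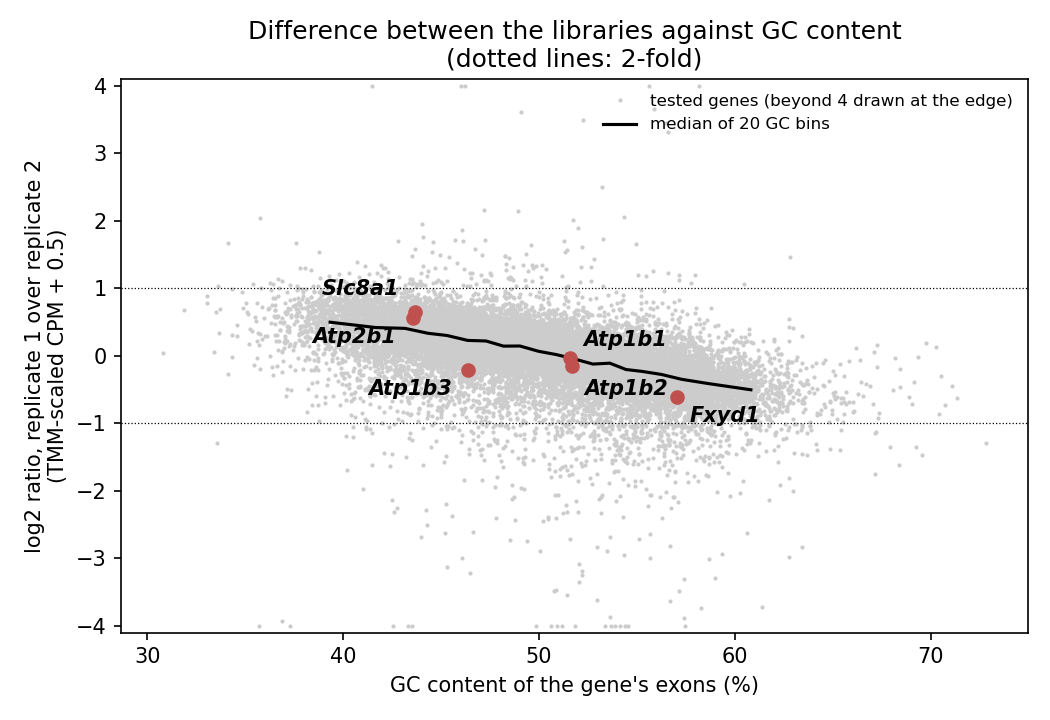
Log2 ratio of replicate 1 over replicate 2 against GC content, pooled over the exons of all M21 transcripts of a gene. All genes tested are grey and the 6 members red, with the median of 20 GC bins as a line and 2-fold as dotted lines. Slc8a1 and Atp2b1 lie above 0 on the side of low GC content, Fxyd1 below 0 on the side of high GC content, and Atp1b3 below the line.

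The libraries held 57464573 estimated counts in replicate 1 and 62912053 in replicate 2, of which 98.3% lay on genes in each. They differed in their make-up: mitochondrial transcripts held 46.5% and 30.6% of TPM, and 7 of 7 lung epithelium, 6 of 6 erythroid, 5 of 6 adipocyte and 3 of 6 immune markers were 2-fold or more higher in replicate 2. The summed erythroid markers held 0.759% and 9.49% of TPM, and the lung markers 0.88 and 2535 TPM in sum. Of the cardiomyocyte markers 0 of 9 were 2-fold apart, and their sum was 3.49% and 3.99% of TPM, so heart muscle transcripts were present in both libraries. The part of these differences in the ratios of the members was not tested. In tissue RNA, fewer cells of a type and less RNA per cell cannot be told apart.

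Of the 42 other genes of the pathway that were tested over 6 lists, 3 (7.14%) were 2-fold or more apart, beside 5.03% of all genes tested, and after the GC correction 0 were. Of the 5 other sodium pump subunit genes, 4 were tested and 1 was 2-fold or more higher in replicate 2, and after the GC correction none was. Together those 5 genes had 416 TPM in replicate 1 and 452 TPM in replicate 2. Of the 6 other FXYD genes, 5 were tested, and Fxyd2, known as a pump subunit of the kidney, was 2.28-fold higher in replicate 2 with 36 and 139 counts, or 1.88-fold after the GC correction. Fxyd5, known for its role in cell adhesion, had 13.9 and 26.3 TPM, Fxyd6 had 17.5 and 21.3 TPM, and Fxyd4 had 0 counts in both, which allows up to 0.0555 and 0.0464 CPM. Fxyd1 exceeded Fxyd5 by 32.2-fold and 29.3-fold and Fxyd6 by 25.5-fold and 36.2-fold.

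Of the 8 other sodium-calcium exchangers, 7 were tested and 0 were apart. Slc8b1, the exchanger of mitochondria, had 5.75 and 6.98 TPM, and Slc24a3, which also carries potassium, 1.17 and 1.91 TPM. The neuronal exchanger Slc8a2 had 0.21 and 0.55 TPM, and Slc8a3 0.06 and 0.09 TPM. Of the 5 genes in the list of other plasma membrane calcium pumps and their partners, 0 of 5 were apart. Bsg (basigin) and Nptn (neuroplastin), glycoproteins that associate with these pumps, had 587 and 833 TPM and 103 and 156 TPM, well above Atp2b1 itself. By scaled counts Bsg was 1.28-fold higher in replicate 2, but Nptn was 1.14-fold higher in replicate 1, against the direction of its TPM. Of 10 proton, bicarbonate and chloride carriers 0 were apart, led by the anion exchanger Slc4a3 at 78.1 and 96.7 TPM and the potassium-chloride cotransporters Slc12a7 at 66.5 and 74.9 TPM and Slc12a4 at 25.6 and 29.0 TPM.

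Of 11 anchors and regulators, 1 was apart: Ppp1r1a, an inhibitor of protein phosphatase 1, was 2.05-fold higher in replicate 2 with 74 and 215 counts, and less than 2-fold after the GC correction. The phosphatase subunit Ppp1ca had 142 and 178 TPM, and Prkaca, the catalytic subunit of the kinase that phosphorylates phospholemman, 116 and 126 TPM. Sptbn1, a spectrin of the membrane skeleton, had 85.6 and 89.4 TPM. The median log2 ratio of the 6 lists lay between -0.62 for the FXYD genes and 0.18 for the anchors, beside 0.01 over all genes tested and -0.09 for the 6 members.

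The transcript tables gave 1 leading transcript for 5 of the 6 genes and a mixture for Fxyd1. Atp1b1-201 held 99.2% of the TPM of Atp1b1 in replicate 1 and 98.9% in replicate 2. Atp1b3-201 held 98.5% and 100%. Atp1b2-201 held 78.7% and 72.9%, and Atp1b2-202, a longer transcript with no annotated coding sequence, 10.5% and 18.6%. Slc8a1-201 held 92.1% and 97.4%, and Slc8a1-202 the rest, 7.86% and 2.55%. That split is loosely set: Slc8a1-202 had 516 and 127 counts, with posterior SDs (the spread of the estimate) of 170 and 91.8. Atp2b1-201 held 100%, as the only transcript of Atp2b1 in the tables. For Fxyd1 the shares were 51.4% and 60.6% for Fxyd1-203, 32.7% and 29.8% for Fxyd1-201, and 15.9% and 9.59% for Fxyd1-202.

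**Figure D3:**
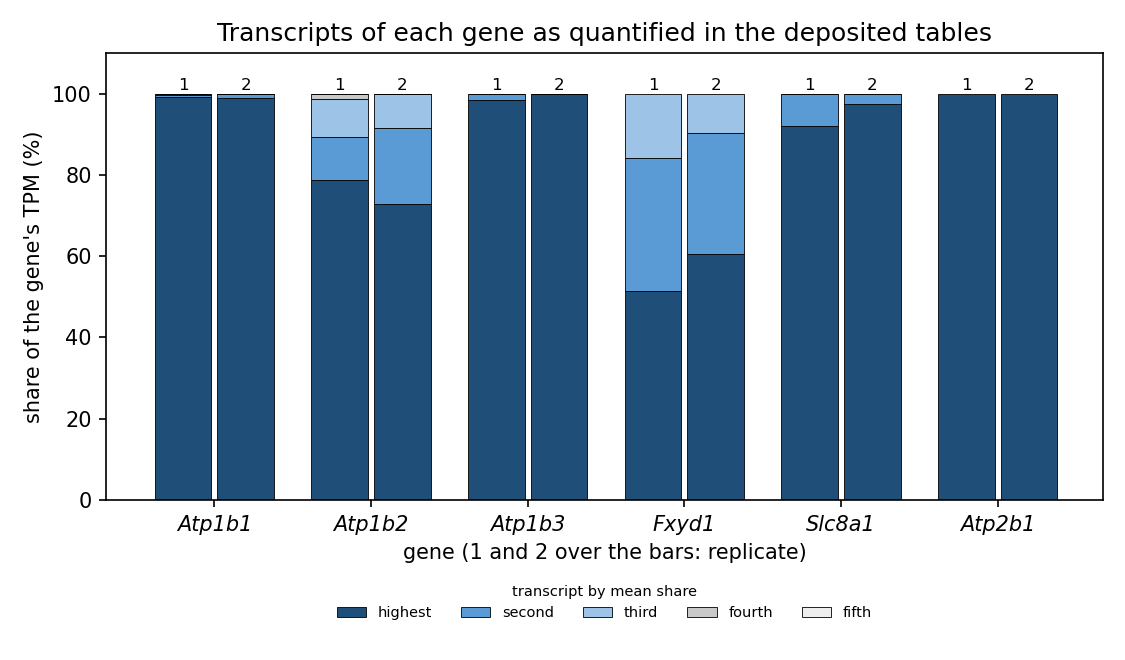
Share of each gene's TPM held by its transcripts, as stacked bars for replicate 1 (left) and replicate 2 (right), from the highest mean share at the bottom. Fxyd1 is split over 3 transcripts, led by 51.4% and 60.6%, while 1 transcript holds over 98% of Atp1b1 and of Atp1b3.

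These shares depend on the transcripts that were quantified. The tables listed 3 transcripts of Fxyd1, 3 of Slc8a1 and 1 of Atp2b1, where GENCODE M21 has 17, 6 and 11. For Atp1b1, Atp1b2 and Atp1b3 the numbers were equal, at 4, 5 and 3. Slc8a1-201, of 2913 nt, is annotated from start codon to stop codon only, so reads from its untranslated ends were not part of its model, and M21 also holds Slc8a1-204 of 18464 nt. The model of Slc8a1-202 has 2877 nt in the tables and 3180 nt in M21, where its coding exons are those of Slc8a1-201. The quantified model is thus shorter than Slc8a1-201, and how their exons differ there was not examined. Fxyd1-202 and Fxyd1-203 differ too, at 603 and 539 nt in the tables and 522 and 492 nt in M21. Fxyd1-201 has 620 nt in both.

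A deposited list of splice junctions, on the older mm9 build and with no library named, gave a separate view of which exons were joined. Its reads were treated as pooled over the libraries, which the list does not state. Marks in its junction names were not tied to a library. Its values thus have no replicate error, and shares carry a 95% Wilson interval of counting error only. An intron was matched by chromosome, strand and length where that length was unique, which found 26 of the 80 annotated introns of the members. An alternative chosen after seeing the data matched introns also by their spacing within the gene, and found 68. Every gene had 1 spacing that 5 or more introns shared, and the next best was shared by 1. Values below marked as by spacing rest on this alternative, which includes all of Fxyd1 and Atp1b2.

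In Atp2b1, 59 reads skipped the alternative exon printed above and 122 joined its first 87 nt to the next exon, both matched by unique length. By spacing, 9 more reads left the exon after 114 nt, an end that M21 does not hold, and 3 left it after 154 nt. In the printed exon GT, the usual first letters of an intron, follows both position 87 and position 114. Of the 193 reads into the next exon, 63.2% (56.2% to 69.7%) thus came from the 87-nt form, 4.66% (2.47% to 8.62%) from the 114-nt form, 1.55% (0.53% to 4.47%) from the 154-nt form and 30.6% (24.5% to 37.4%) from skipping. Lengths of 87 and 114 nt are multiples of 3, adding 29 and 38 codons, while 154 nt shifts the reading frame. In human and rat, the forms of this pump with these exon lengths are known to differ in the C-terminal region that binds calmodulin.

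The 2 sides of the exon did not give the same share. Out of the exon before it, 43 reads by spacing entered the alternative exon and 59 skipped it, so inclusion was 42.2% (33.0% to 51.9%) there, against 69.4% (62.6% to 75.5%) from the reads into the exon after it. By either side the exon was used in a sizeable part of the Atp2b1 reads, whereas the only transcript of Atp2b1 in the tables skips it. At the 5′ end of Atp2b1, 19 reads came from the first exon of Atp2b1-207 and 10 from that of Atp2b1-201, with 65.5% (47.3% to 80.1%) from the Atp2b1-207 exon of these 29 reads. That interval includes an even split.

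**Figure D4:**
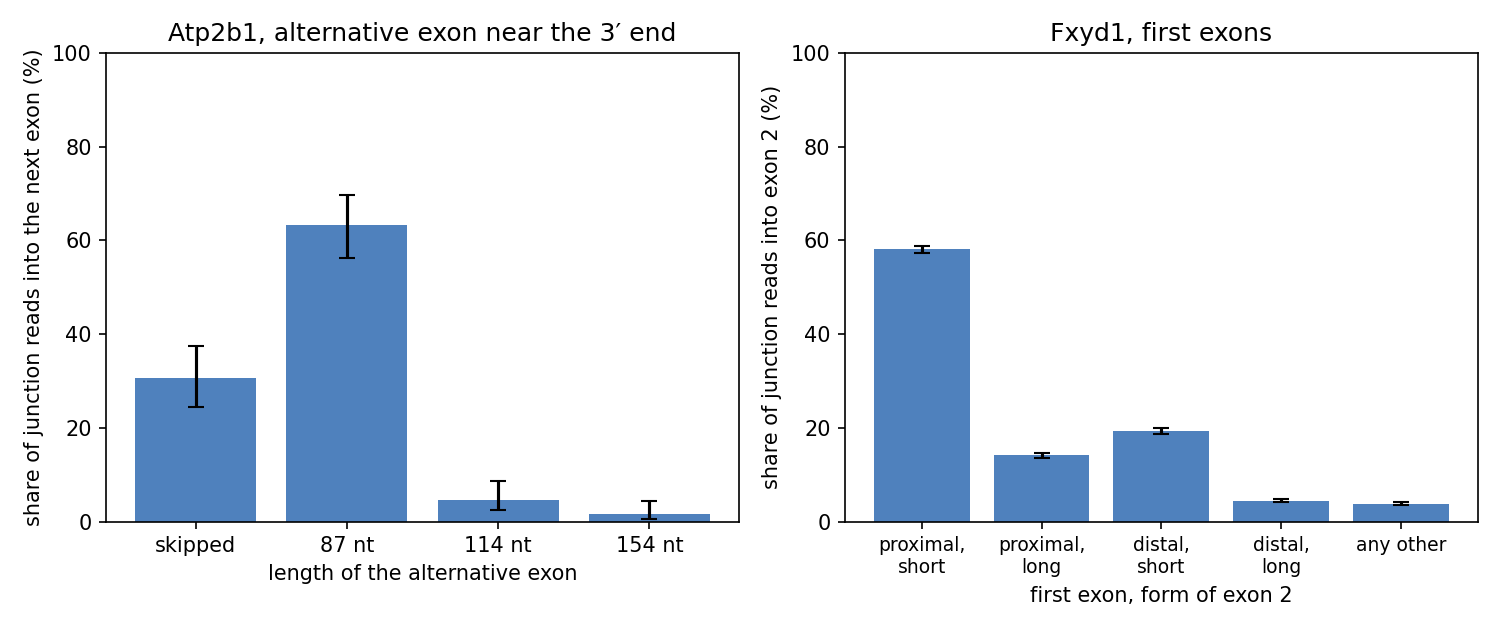
Shares of junction reads with 95% Wilson intervals. The left panel shows forms of the alternative exon of Atp2b1 among 193 reads into the next exon, where the 87-nt form has 63.2%. The right panel shows first exons and forms of exon 2 of Fxyd1 among 15616 reads into exon 2, where the proximal first exon with the short exon 2 has 58.1%.

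In Fxyd1 the main variation lay at the start of the transcript. A pair of first exons supplied most of the 15616 reads into exon 2, all by spacing: the proximal one (chr7:31054765-31054807 in Fxyd1-203) had 11328 reads, or 72.5% (71.8% to 73.2%), and the distal one (chr7:31055551-31055656 in Fxyd1-201) had 3700, or 23.7% (23.0% to 24.4%). Exon 2 itself began at either of 2 points, which make it 65 nt or 129 nt long. The short form held 80.2% (79.6% to 80.8%) of the reads and the long form 19.4% (18.8% to 20.01%). The annotated start codon, chr7:31054364-31054366, lies in exon 2 in both forms and is shared by 11 M21 transcripts, so these choices change what precedes the coding sequence.

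Taken by pairs, the proximal first exon joined the short exon 2 in 9078 reads and the long one in 2209. The distal first exon joined the short exon 2 in 3006 reads and the long one in 688. The most frequent distal form, distal to short, had 19.2% (18.6% to 19.9%) of all reads into exon 2, and none of the M21 transcripts with this join was listed in the tables. By the M21 exons, Fxyd1-201 is the only distal transcript there and has the long exon 2. The distal-to-long join had 4.41% (4.09% to 4.74%) of the reads. The tables nevertheless gave Fxyd1-201 32.7% and 29.8% of the gene. In the coding part, 38 reads skipped the 75-nt exon, beside 14106 and 9955 reads across its 2 junctions. Near the 3′ end, 354 reads used the 152-nt intron of Fxyd1-207 and 3750 the 117-nt intron of Fxyd1-203 and others.

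In Slc8a1, the exon chr17:81738309-81738377 lies after the promoter printed above. It gave 472 of the 486 reads (97.1%, 95.2% to 98.3%) from annotated first exons into the large exon 2. The first exon of Slc8a1-205 gave the other 14. Joins that M21 does not annotate were not counted among the 486. Out of exon 2, across the intron of 202215 nt, there were 58 reads. Far fewer reads thus left exon 2, which holds the start codon, than entered it.

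The printed stretch of small exons was joined in the order 3, 4, 5, 6, 7. From exon 3 to exon 4 there were 115 reads, from exon 4 to exon 5 98 reads by spacing, from exon 5 to exon 6 only 7 by spacing, and from exon 6 to exon 7 40. Skipping of the 15-nt exon 6 had 5 reads by spacing, 11.1% (4.84% to 23.5%) of the 45 reads that entered exon 7 at this point. Of the 12 reads out of exon 5, the same 5 were 41.7% (19.3% to 68.0%). The other 21-nt exon, of Slc8a1-203, had 0 reads at its junctions by spacing, and Slc8a1-203 was also listed at 0 TPM in both libraries. In mammals this set of exons, known as A, C, D, E and F, is the form of the exchanger described for heart muscle. Toward the 3′ end the reads grew to 277, 314, 548 and 897 over the last 4 introns. How the mapper treats exons as short as these is not stated in the labels or file headers, and its part in the low count between exons 5 and 6 was not tested.

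**Figure D5:**
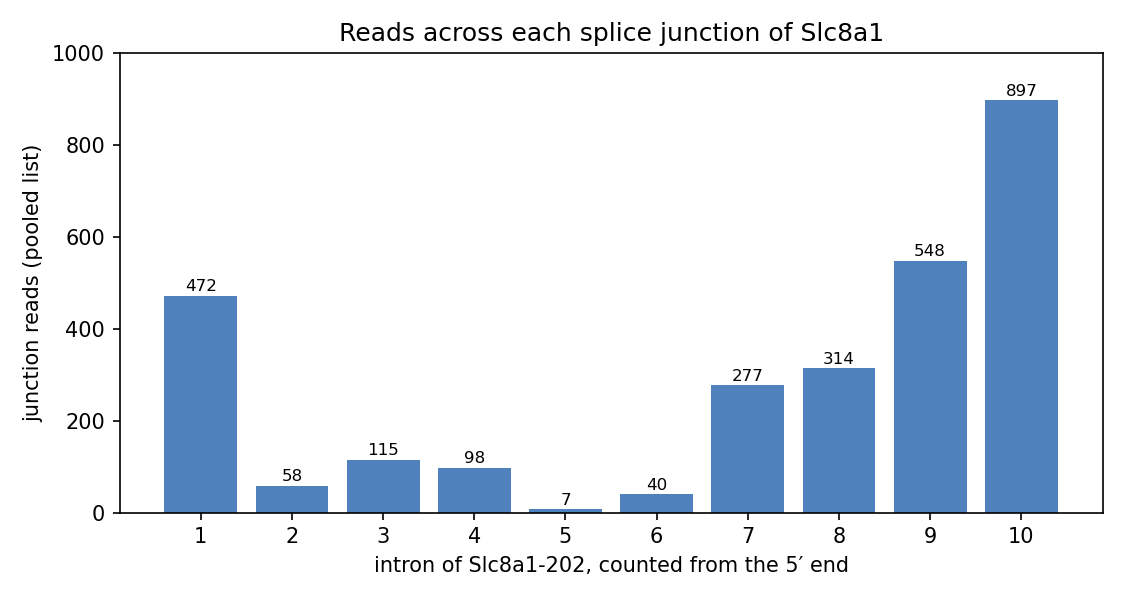
Reads of the junction list, treated as pooled, across each intron of Slc8a1-202, numbered from the 5′ end. Intron 1 has 472 reads, intron 2 has 58, intron 5, between the 18-nt and 15-nt exons, has 7, and intron 10 has 897.

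Among the joins in the list, the beta subunits showed a single main path. For Atp1b2 this leaves out Atp1b2-202, which held 10.5% and 18.6% of the gene's TPM and does not splice the 801-nt intron of Atp1b2-201. A kept intron leaves no junction, so the list could not show that form. Atp1b1 had between 749 and 2021 reads at each of its 5 matched introns, of which the first 2, matched by unique length, had 1706 and 2021. The other Atp1b1 introns were matched by spacing. Atp1b3 had between 18 and 161 reads at 6 introns, with both ends of that range by spacing. Atp1b2 had between 33 and 131 at 6, all by spacing. The introns found only in Atp1b1-204, Atp1b2-203 or Atp1b3-202 had 0 reads by spacing, and these transcripts were listed at 0 TPM in both libraries. Genes on the other strand overlap Atp1b1 (Nme7, with 104 and 117 counts) and Slc8a1 (2 genes with 0 counts), and the libraries are labelled as stranded.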

How the data were processed

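The 2 libraries of heart poly(A) RNA, replicates 1 and 2 by the labels, were analysed. The authors deposited tables per gene and transcript on mm10 with GENCODE M4, per the notes with the tables. The quantification program is not stated there. Per the file headers, the authors estimated counts of fragments per feature (expected counts), divided them by effective length to make TPM and FPKM, and gave each transcript's percent of its gene. The deposited junction list, on mm9, holds a whole-number count of reads for 362268 junctions (35016870 reads). Depth is 57464573 and 62912053 estimated counts.

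Symbols, GC content and coordinates came from GENCODE M21 on GRCm38 (42462 identifiers, 98.0%, matched), promoters from RefSeq (GRCm38.p6). Counts were rounded and scaled with edgeR 4.0.16 (TMM, 0.957 and 1.04), with DESeq2 1.42.0 size factors as an alternative, in R 4.3.3, and analysed with Python 3.11.15 and scipy 1.17.1. The ratio, its interval and the GC correction were tested on simulated data. The members and gene lists were chosen with earlier results of these data known. Named were all members and, of each list, up to 3 genes of highest mean TPM and those 2-fold apart. Slc8a2, Slc8a3, Fxyd4, Nme7 and the exons described were chosen after their values were seen. Junction coordinates were never converted, and those printed are the annotation's. Alternatives were another scaling, prior, minimum count, GC correction, length correction and estimate, and each replicate alone. The contig list was not used, and some single genes of the lists have no values here.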

Additional observations from a re-analysis of the deposited data

How the results depend on the processing

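No member was 2-fold apart under any alternative. The log2 ratio of Atp1b1, -0.03, turned to 0.00042 with the GC correction, and the 3 beta subunits, higher in replicate 2 in deposited TPM, were higher in replicate 1 in TPM outside the mitochondrial genome. Of the recomputed library ratios of the members, 16 moved beyond their counting interval and 26 did not. The 26 include the settings that changed only the minimum count, which leave a member's ratio as it was and so could not move it. In all, 104 recomputed main values and counts stayed within the spread and 23 moved. With 2 libraries, a value from 1 replicate alone always lies within the spread. Counts per effective length and the deposited percent of the gene in effect restate TPM. Atp2b1-201 holds 100% under any setting, as the only transcript listed. A change of the minimum count alone cannot alter the number of members apart. All such values among the 104 could not have moved and say nothing on how firm the results are. Genes higher in replicate 1 numbered 126 with total counts as library sizes, 112 with TPM, 108 with the GC correction and 461 with a prior of 0.1 CPM, beside 191. With that prior 1178 were higher in replicate 2, beside 621. Rescaled to genes outside the mitochondrial genome, mean TPM was 1000.4 for Fxyd1, 114 for Atp1b1, 58.8 for Slc8a1, 28.8 for Atp1b3, 19.4 for Atp1b2 and 5.73 for Atp2b1, in the same order. Without the correction for length, log2 ratios were 2.39 (Atp1b1 over Atp1b3), 2.43 (Atp1b1 over Atp1b2), 0.039 (Atp1b3 over Atp1b2), 0.46 (Fxyd1 over Atp1b1), 1.27 (Fxyd1 over Slc8a1), 1.57 (Slc8a1 over Atp1b3), 1.99 (Slc8a1 over Atp2b1) and 0.38 (Atp1b2 over Atp2b1). The share of Atp1b1-201 was 99.8% by counts and 98.7% by posterior mean TPM, and that of Atp1b3-201 97.7% by posterior mean TPM. Introns with junction reads numbered 26 by unique length and 68 by spacing. Depth limits the junction shares of Atp2b1, which rest on 193 reads. No paired analysis was possible because the series has 1 group.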

Other observations

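The junction list also held joins within the members that GENCODE M21 does not annotate, placed by spacing. Fxyd1 had 70 such junctions with 647 reads in all, the most frequent with 160, beside 66959 reads at annotated introns. Slc8a1 had 25 with 66 reads, the most frequent with 19, beside 2858. Atp2b1 had 7 with 29 reads, the most frequent with 15, beside 1232. Atp1b1, Atp1b2 and Atp1b3 had 13, 3 and 7 with 18, 9 and 11 reads, none with more than 4. The reads at annotated introns were also matched by spacing. Of these, 15.2% for Atp2b1, 5.69% for Fxyd1 and 1.12% for Slc8a1 lay at introns whose M21 transcripts were not listed in the deposited tables, and 0% for the beta subunits.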
